A study of Homo sapiens with 2 samples.

Results

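The phagocyte NADPH oxidase was represented by 6 genes, CYBB, CYBA, NCF1, NCF4, RAC2 and VAV1, taken by name with all of their probe sets. They were 6 genes beside 18404 named genes measured in the series, and 5 of the 6 had a probe set of their own, while NCF1 was read only by probe sets that it shares with its pseudogenes. Total RNA came from wild-type HL-60, an established human promyelocytic leukaemia cell line whose cells can be driven to mature towards neutrophils or macrophages. The cells were grown in DMEM with 10% serum, with no agent or genetic change named, and each of the 2 samples, replicates 1 and 2, was read on an Affymetrix Human Gene 1.0 ST array. Both arrays belong to 1 group, so no test between conditions exists and each gene is described by its value on each array and by mean ± SD (n = 2). Nothing in the labels says that the replicates were separate cultures, so their spread may be technical. Because the RNA was bulk, fewer cells that carry a transcript and less of that transcript per cell cannot be told apart.

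The oxidase passes electrons from NADPH across a membrane to oxygen and so makes superoxide, which phagocytes use against microbes. Its membrane core is a heterodimer of CYBB, the catalytic flavoprotein also called gp91phox, and CYBA, the smaller p22phox chain that stabilises it. In resting cells the organiser NCF1 (p47phox) and the regulator NCF4 (p40phox) stay in the cytosol, and after a stimulus they dock on the core together with a RAC GTPase, in neutrophils mainly RAC2. VAV1 is an exchange factor of blood cells that loads RAC with GTP. Inherited loss of core or cytosolic subunits causes chronic granulomatous disease, and CYBB and NCF1 are known as genes that become active late, as myeloid cells mature.

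Signals are log2 values made by RMA. A gene was called above background where it exceeded, on both arrays, the 95th percentile of 359 olfactory receptor genes, which was 2.98 on replicate 1 and 2.88 on replicate 2. A stricter, second threshold was the same percentile of 115 tissue-restricted genes of 3 other families (beta-defensins, bitter taste receptors and proteins associated with keratin), at 5.41 and 5.23. A signal depends on the probes of its probe set, so the members are set against these thresholds and not against each other, and a signal under a threshold does not show that the transcript is absent. Over all genes, replicate 2 minus replicate 1 had an SD of 0.39, which corresponds to 0.28 per array, and this is a better guide to the error of a gene than its own SD over 2 arrays.

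Of the 5 genes with a probe set of their own, 4 were above the olfactory threshold on both arrays, where 55.8% of all named genes were, and 2 were above the second threshold, where 17.0% of all named genes were. RAC2 and NCF4 exceeded both thresholds, VAV1 and CYBA the olfactory threshold only, and CYBB, the catalytic subunit, neither. With 5 genes, these counts describe the members and show nothing particular to them.

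**Figure D1:**
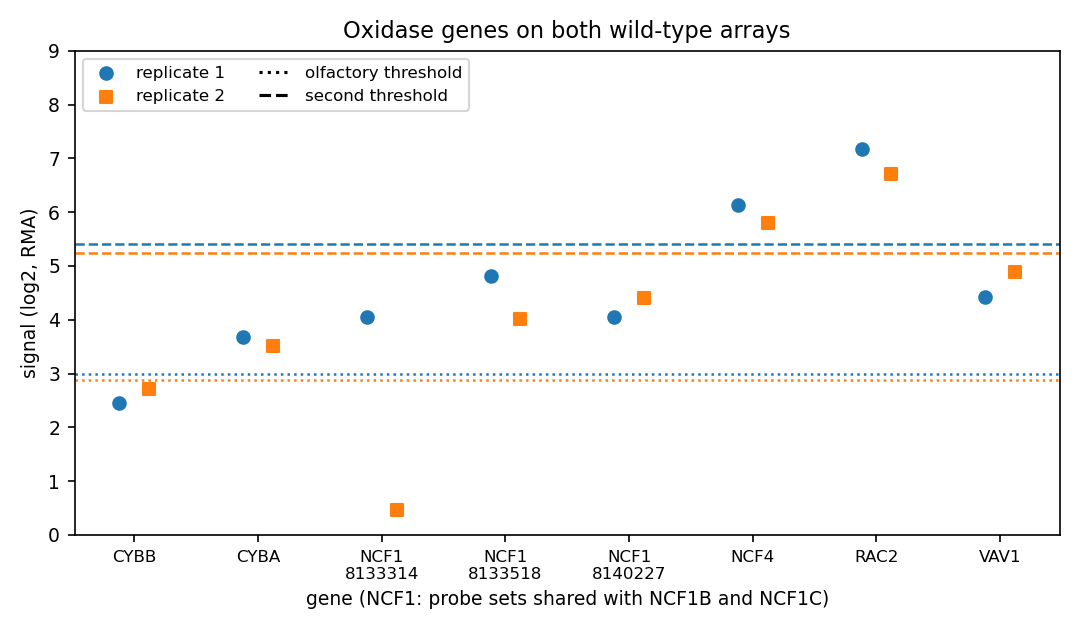
Signal (log2, RMA; vertical axis) of each probe set of the oxidase genes on replicate 1 (circles) and replicate 2 (squares); dotted and dashed lines are the olfactory and second thresholds of each array, in its colour. RAC2 and NCF4 lie above all lines, CYBB lies below all lines, and the shared NCF1 probe set 8133314 reads 4.05 on replicate 1 and 0.46 on replicate 2.

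Of the membrane core, CYBA passed the olfactory threshold and CYBB did not. CYBB (probe set 8166730, Entrez 1536, chromosome X) read 2.46 on replicate 1 and 2.72 on replicate 2, a mean of 2.59 ± 0.18 (SD, n = 2). Both values were under the olfactory threshold, by 0.53 on replicate 1 and by 0.16 on replicate 2, so the second of these gaps was smaller than the spread of 0.28 per array. CYBA (probe set 8003322, Entrez 1535, chromosome 16) read 3.68 and 3.52, a mean of 3.60 ± 0.11. It exceeded the olfactory threshold by 0.69 and 0.64 and stayed 1.73 and 1.72 under the second. CYBA is transcribed in many cell types, where its chain also serves other NOX enzymes. With the olfactory threshold raised to the 99th percentile (3.60 on replicate 1 and 3.76 on replicate 2), CYBA passed on replicate 1 only. Of the 5 genes, 3 remained above background, as did 40 of the 59 measured genes of the lists below. The share of all named genes was not computed at this threshold.

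In the cytosolic arm, NCF4 and the GTPase RAC2 exceeded both thresholds. NCF4 (probe set 8072744, Entrez 4689, chromosome 22), whose protein binds phosphatidylinositol 3-phosphate on phagosomes, read 6.13 and 5.80, a mean of 5.96 ± 0.23. It exceeded the second threshold by 0.72 and 0.57, both larger than the SD of 0.39 of a difference between arrays. That SD does not cover the effect of the probes on a signal. RAC2 (probe set 8075910, Entrez 5880, chromosome 22), the GTPase of blood cells, read 7.18 and 6.71, a mean of 6.95 ± 0.33, and exceeded the second threshold by 1.77 and 1.48. VAV1 (probe set 8025076, Entrez 7409, chromosome 19) read 4.42 and 4.88, a mean of 4.65 ± 0.32. It was above the olfactory threshold by 1.44 and 2.00 and below the second by 0.99 and 0.35.

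NCF1 could not be read on its own. The platform annotation gives it 3 probe sets, and each carries NCF1 (Entrez 653361, chromosome 7) together with the pseudogenes NCF1B and NCF1C, near-identical copies on the same chromosome. Probe set 8133518 read 4.81 on replicate 1 and 4.01 on replicate 2. Probe set 8140227 read 4.04 and 4.41. Each passed the olfactory threshold, but not the second, on replicate 1 and on replicate 2, and any of the 3 loci could be the source of that signal. The remaining probe set, 8133314, read 4.05 on replicate 1 and 0.46 on replicate 2, a difference of -3.59 on the log2 scale; the value on replicate 2 lies far under the olfactory threshold, so no fold is given. Only 18 of the other probe sets among 32321 differed by more between the arrays, in either direction, and the value on replicate 2 ranked 26 from the bottom. On replicate 1 the 3 probe sets spanned 0.76, and 181 of 250 groups of probe sets that share 1 set of several symbols, NCF1 included, spanned at least as much. On replicate 2 they spanned 3.95, a span that 26 of those 250 groups reached, NCF1 included. Their mean was 4.30 on replicate 1 and 2.96 on replicate 2, the latter just above the olfactory threshold, and their median was 4.05 and 4.01. NCF1 is therefore left out of the counts over members, and no direction is given for it.

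Between the arrays, the 5 genes with their own probe sets differed by less than 1 on the log2 scale. The number past that limit was 0 of 5, where 1.96% of all named genes exceeded it. RAC2 had the largest difference, -0.47 (replicate 2 minus replicate 1, 1.38-fold), and 20.5% of all genes differed by at least as much. VAV1 differed by 0.46 in the other direction, a size reached by 21.3% of genes. NCF4 differed by -0.33, CYBB by 0.26 and CYBA by -0.16. The directions were mixed: 3 of 5 were lower on replicate 2, against 52.6% of all genes, and their median difference was -0.16 against -0.04 over all genes. With 1 array on each side these differences have no replicate check.

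**Figure D2:**
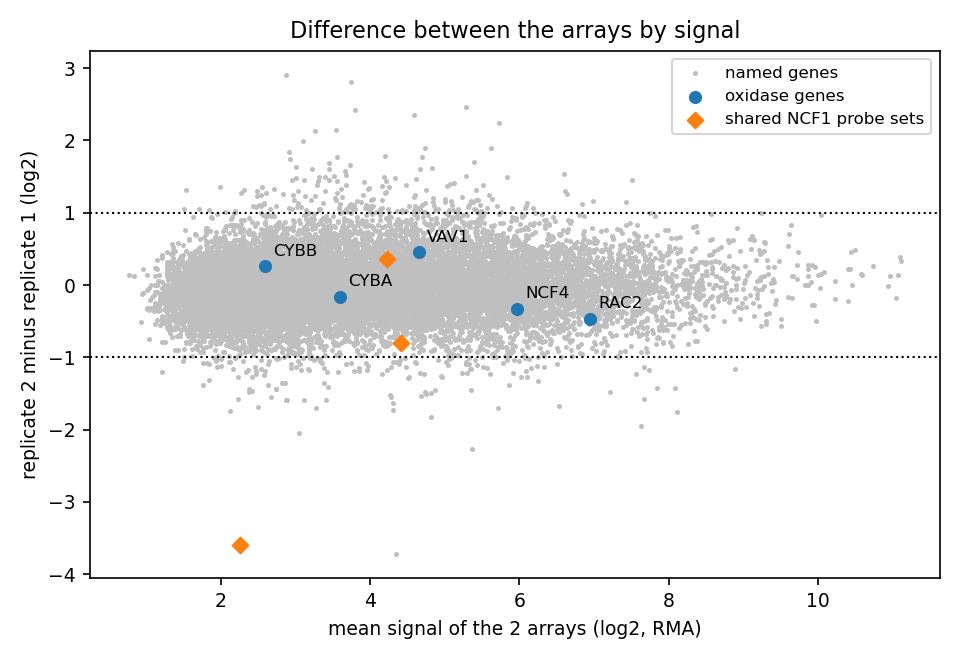
Replicate 2 minus replicate 1 (log2; vertical axis) against the mean signal of both arrays (log2, RMA) for named genes (grey), the 5 oxidase genes with their own probe set (circles) and the 3 shared NCF1 probe sets (diamonds); dotted lines mark a difference of 1. The 5 genes lie between -0.47 and 0.46, and 1 shared NCF1 probe set lies at -3.59.

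Promoter sequence was available for 4 of the 6 genes, CYBB, CYBA, NCF1 and VAV1, in the RefSeq table of GRCh38.p14. RAC2 and NCF4, the members above both thresholds, had no entry there, and NCF1 has no signal of its own. CpG is counted because the series concerns DNA methylation, which in human cells falls mainly on that dinucleotide. Methylation itself was not analysed here, and a link between these sequences and the signals was not tested. Each is the 250 bases before the annotated gene start, 5′ to 3′ on the gene's own strand, with the core shared by ETS factors such as PU.1 in capitals (GGAA, or TTCC where it lies on the opposite strand). The CYBB stretch is chrX:37779809-37780058 (plus strand), that of CYBA chr16:88651054-88651303 (minus strand), that of NCF1 chr7:74773761-74774010 (plus strand) and that of VAV1 chr19:6772458-6772707 (plus strand).
CYBB: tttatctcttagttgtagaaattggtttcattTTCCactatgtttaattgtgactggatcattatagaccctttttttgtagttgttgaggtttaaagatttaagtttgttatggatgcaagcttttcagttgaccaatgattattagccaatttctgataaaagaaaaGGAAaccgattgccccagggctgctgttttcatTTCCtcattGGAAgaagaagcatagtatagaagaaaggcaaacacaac
CYBA: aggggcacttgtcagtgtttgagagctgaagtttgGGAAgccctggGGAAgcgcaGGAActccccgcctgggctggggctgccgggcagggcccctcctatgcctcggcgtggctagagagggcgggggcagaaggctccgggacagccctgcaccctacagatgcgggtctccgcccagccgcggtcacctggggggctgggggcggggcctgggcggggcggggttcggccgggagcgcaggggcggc
NCF1: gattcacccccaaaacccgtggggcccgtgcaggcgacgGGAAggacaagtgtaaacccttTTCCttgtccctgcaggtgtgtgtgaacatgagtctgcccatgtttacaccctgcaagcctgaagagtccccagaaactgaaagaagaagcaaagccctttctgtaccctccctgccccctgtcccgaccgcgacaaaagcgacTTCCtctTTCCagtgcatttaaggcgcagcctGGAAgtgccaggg
VAV1: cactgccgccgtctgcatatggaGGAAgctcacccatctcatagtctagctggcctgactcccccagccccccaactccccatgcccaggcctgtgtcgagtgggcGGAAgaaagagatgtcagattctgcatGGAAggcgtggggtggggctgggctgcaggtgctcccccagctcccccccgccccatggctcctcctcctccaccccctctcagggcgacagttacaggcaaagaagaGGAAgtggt

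The 2 chains of the membrane core had contrasting promoters. The stretch before CYBB held 1 CpG and was 34% G and C, and 15.4% of 27303 promoters of the same length held as few CpG. The stretch before CYBA held 18 CpG and was 73.6% G and C, and 36.5% of promoters held at least as many; the median promoter held 11 CpG. NCF1 held 9 CpG and VAV1 held 7. The ETS core GGAA, searched on both strands, occurred 4 times before CYBB, 3 times before CYBA, 5 times before NCF1 and 4 times before VAV1. It is a frequent word: 55.3% of all promoters held at least 3 copies and 34.5% at least 4. The longer PU box GAGGAA, which contains the ETS core and was also searched on both strands, occurred once before CYBB and NCF1 and at 2 places before VAV1, but was not found before CYBA; 23.4% of promoters held at least 1 and 3.47% at least 2. In CYBB it lay 48 to 43 bases before the start, in NCF1 45 to 40 bases before it, and in VAV1 the nearer copy lay 11 to 6 bases before it. The interferon response word GAAA, any 2 bases, then GAAA, searched on both strands, which can overlap an ETS core, was found at 2 places before CYBB and at 1 before NCF1, where 3.07% of promoters held at least 1 and 0.227% at least 2. In CYBB both copies overlapped an ETS core. The CCAAT box, searched on both strands like the words that follow, occurred 4 times before CYBB, and 0.930% of promoters held at least 4. The GC box GGGCGG occurred 6 times before CYBA. Its copies at 37 to 32 and at 32 to 27 bases before CYBA overlap. At least 4 were held by 7.82% of promoters, and the share with at least 6 was not computed. Before VAV1 the GC box was found at 2 places, and 24.4% of promoters held at least 2. The word TATAAA was found in none of the 4 stretches, and 11.1% of promoters held it. All these shares are over promoters with a median of 58% G and C and were not matched for base composition. They therefore do not show how unusual a word is in a stretch such as that of CYBB (34%) or CYBA (73.6%). A match of letters is a description and does not show that a factor binds.

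**Figure D3:**
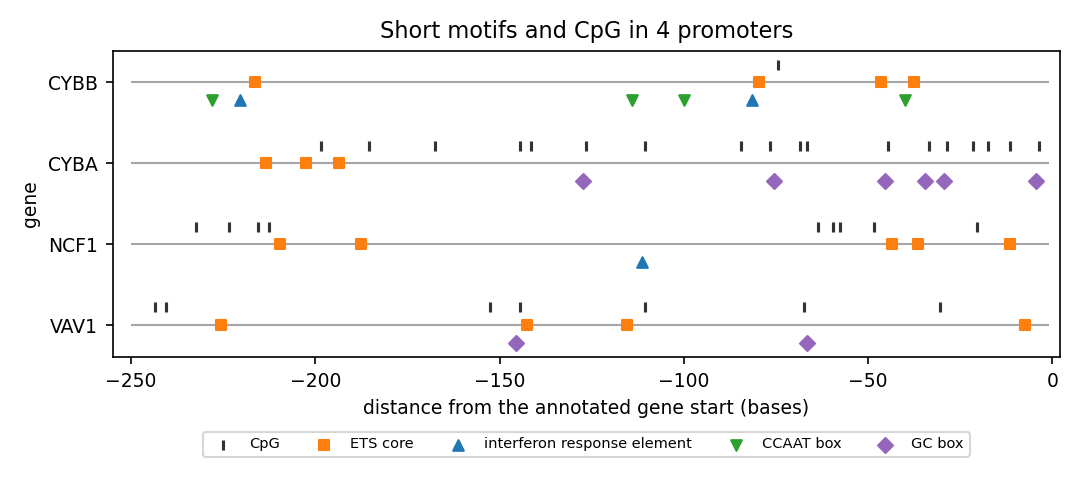
Positions of CpG (ticks), the ETS core (squares), the interferon response element (triangles pointing up), the CCAAT box (triangles pointing down) and the GC box (diamonds) in the 250 bases before 4 oxidase genes; the horizontal axis is the distance in bases from the annotated gene start. CYBB holds 1 CpG and 4 CCAAT boxes, CYBA 18 CpG and 6 GC boxes.

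Of 10 measured genes of factors known to act at these promoters, 8 exceeded the olfactory threshold, as 55.8% of all named genes did, and 4 the second, as 17.0% did. ELF1, an ETS factor, read 8.40 and 8.48 on replicates 1 and 2, and SPI1, which encodes PU.1, read 4.79 and 5.02. IRF2 read 5.94 and 6.27 and IRF1 3.21 and 3.62, whereas IRF8, an interferon regulatory factor known to cooperate with PU.1 at CYBB, read 1.65 and 1.59 and was not above background. The repressors CUX1 (6.00 and 6.23) and SATB1 (5.82 and 5.89) exceeded both thresholds. CUX1 is known to bind the CYBB promoter in immature myeloid cells and to leave it as they mature. CEBPE read 4.75 and 4.49 and CEBPA 3.81 and 4.22, both above the olfactory threshold only. MEIS1, a homeobox partner of HOX proteins, read 2.14 and 1.76 and passed on neither array. What part any of these factors has in the level of CYBB was not tested.

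The lists around the core are given as counts, to be read against the same 55.8% and 17.0% of all named genes; no difference between lists was tested. The 3 measured genes of subunit assembly and charge balance all exceeded the olfactory threshold: CYBC1, a chaperone that the core needs, read 3.82 and 4.11, RAP1A, a small GTPase found with the core, 4.68 and 4.60, and HVCN1, the proton channel that offsets the charge moved by the oxidase, 4.22 and 3.80. Of 8 measured NOX and DUOX enzymes and partners, 2 passed. They were the cofactors NOXO1 (3.80 and 3.54) and NOXA1 (3.89 and 4.04), which serve NOX1. The catalytic genes NOX1 (2.27 and 2.14), NOX3 (1.98 and 1.79), NOX4 (2.61 and 2.26), DUOX1 (2.29 and 2.15) and DUOX2 (2.25 and 1.89) all lay under the threshold on both arrays. So did CYBB, and 0 of the 6 NOX and DUOX catalytic genes measured here were above background. The maturation factor DUOXA2 passed on replicate 1 only (3.01 and 2.84).

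All 6 genes of the list of RAC relatives and GTPase inhibitors exceeded the olfactory threshold. ARHGDIB, the inhibitor that holds RAC GTPases in the cytosol of blood cells, read 7.53 and 7.50, and RHOG 6.73 and 6.32, both above the second threshold. RAC1, the widely expressed relative of RAC2, read 3.31 and 3.39, above the olfactory threshold only, and RAC3 read 3.82 and 2.99. Among 9 exchange factors and GTPase activators, 7 passed. DOCK2, a RAC exchange factor of blood cells, read 7.08 and 6.86, and ARHGAP15, which switches RAC off, 6.60 and 7.09. Of the relatives of VAV1, VAV3 read 5.25 and 5.88 and passed, while VAV2 read 2.24 and 2.03 and did not. TIAM1 passed on replicate 1 only (3.05 and 2.27).

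Of 16 measured kinases and phospholipid signalling genes, the olfactory threshold was passed by 14 and the second by 6. The adaptor LCP2, which works beside VAV1, read 7.99 and 8.06, and the phosphoinositide 3-kinase subunit PIK3CG 6.66 and 7.01. PRKCD, one of the kinases that phosphorylate NCF1, read 6.30 and 6.23. The SRC family kinase LYN read 5.09 on replicate 1 and 6.59 on replicate 2, and its difference of 1.50 was the only one past 1 among the 59 measured genes of all these lists. The kinase PRKCZ was the lowest, at 2.76 and 2.87. All 7 enzymes that act on superoxide or hydrogen peroxide passed, and 5 passed the second threshold, with the dismutase SOD1 at 8.44 and 7.89, catalase (CAT) at 7.78 and 7.30 and the eosinophil peroxidase EPX lowest at 3.94 and 3.13. All 7 were lower on replicate 2, with a median difference of -0.55, where 52.6% of all genes were lower. Among the members RAC2 (-0.47), NCF4 (-0.33) and CYBA (-0.16) were lower on that array too, and CYBB (0.26) and VAV1 (0.46) higher. Over all lists, 47 of 59 measured genes passed the olfactory threshold, 19 also passed the second, and 36 were lower on replicate 2, beside 55.8%, 17.0% and 52.6% of all named genes.

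**Figure D4:**
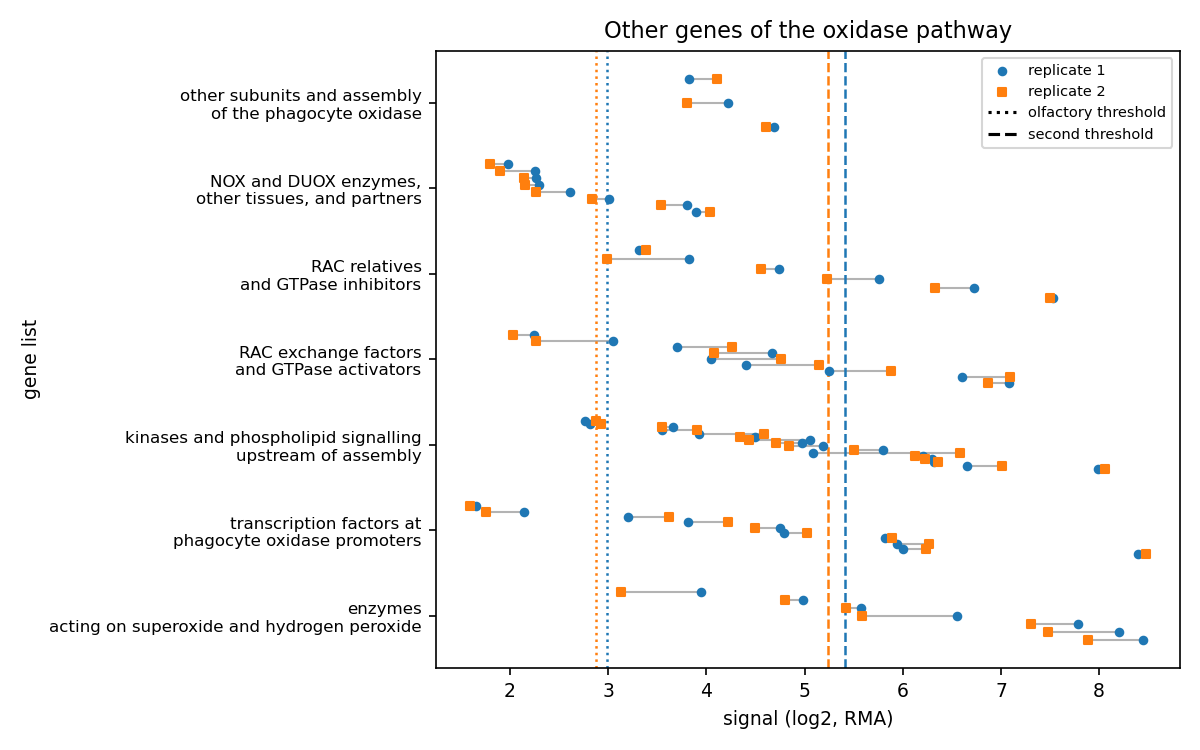
Signals (log2, RMA; horizontal axis) of the measured genes of 7 lists around the oxidase, each gene as a circle for replicate 1 and a square for replicate 2 joined by a line; dotted and dashed vertical lines are the olfactory and second thresholds of each array. Of 8 NOX and DUOX enzymes and partners, only 2 partners, NOXO1 and NOXA1, exceed the olfactory threshold on both arrays. Of 6 RAC relatives and GTPase inhibitors 6 do, beside 55.8% of all named genes.

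The labelled cell type was checked with marker lists. All 6 measured promyelocyte markers exceeded the olfactory threshold and 4 the second, where 55.8% and 17.0% of all named genes did. Of these markers, AZU1 passed the olfactory threshold by only 0.03 on replicate 1. That threshold was passed by 1 of 5 markers of mature neutrophils, 0 of 5 of monocytes and macrophages and 2 of 6 of T and NK cells. It was also passed by 2 of 3 of B cells, 0 of 2 of erythroid cells and 2 of 6 of epithelial and stromal cells. None of the markers in these other lists passed the second threshold. The neutrophil marker S100A9 (2.85 and 3.17) and the erythroid marker ALAS2 (2.70 and 3.14) passed the olfactory threshold on replicate 2 only. Between the arrays, 2 of the 6 promyelocyte markers differed by more than 1: CTSG by -1.75 (8.99 and 7.24) and PRTN3 by -1.48 (7.95 and 6.47), and MPO differed by -0.73. These were lower on replicate 2, like RAC2 and NCF4, whereas MYB, ELANE and AZU1 were higher there, and their part in the differences of the members was not tested. RAC2 and VAV1 are also used by lymphocytes. Of the lymphocyte markers, NKG7 (4.43 and 4.25), CD5 (3.32 and 3.20), CD79A (3.02 and 3.24) and CD79B (3.33 and 3.19) exceeded the olfactory threshold on both arrays. CD79A did so by only 0.04 on replicate 1. The T cell receptor chain genes CD3D (2.84 and 2.19) and CD3E (2.10 and 1.98) and the B cell gene MS4A1 (1.85 and 2.00) were under it on both arrays, as was KLRD1 (1.36 and 1.65), and CD2 read 2.11 on both. What part these transcripts have in the levels of RAC2 and VAV1 was not tested.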

How the data were processed

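Total RNA was amplified, labelled with biotin and read on Affymetrix arrays, per the labels' protocols. For each probe set the authors deposited a log2 signal from RMA, per the submitters' processing notes; the log base is taken as that of RMA, and its software and version are not given in the sources used. RMA draws array distributions together, so a global difference in RNA cannot be seen, and no scanner files were used here.

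In the platform annotation, 19158 of 32321 probe sets had 1 symbol, 1388 had several and 11775 were not listed. Symbols were updated through Entrez IDs (19128 found in the RefSeq table of GRCh38.p14), and probe sets of a gene were averaged, giving 18404 genes. Probe sets with several symbols named no gene; those of NCF1 are given by probe set. List genes without a probe set of their own are not reported here. The members and lists were chosen with earlier results of these data known. Named were every member and the highest, the lowest and any gene differing by over 1 of each list, with further genes of lists of 10 or fewer chosen for their role; PIK3CG, PRKCD and transcription factors other than ELF1 and IRF8 were added for their role after their values were seen. Calls and normalizations were tested on simulated data. Of the calls, only that of a difference over 1 between the arrays was included, and the calls above background were not. No p-value was computed, and the number of arrays limits the precision. Motifs were counted in the 250 bases before each RefSeq gene start. Python 3.11.15, numpy 2.4.6, pandas 2.3.3, statsmodels 0.14.6 and matplotlib 3.10.9 were used.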

Additional observations from a re-analysis of the deposited data

How the results depend on the processing

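No paired analysis was possible because there is only 1 group. The 5 main values were recomputed under quantile normalization, a loess correction of the difference, the highest probe set per gene and addition of the shared NCF1 probe sets; the counts above a threshold also on each array alone and, for members and pathway genes above background, at other thresholds; and the values of the difference with a filter on dim genes. Of 37 recomputed values 4 could not change by construction, and of the other 33, 30 stayed within 1.5 times the count or within the spread between the arrays and 3 moved. Against the second threshold, 2 members in place of 4 and 19 pathway genes in place of 47 were above background, since that threshold is higher. With the shared NCF1 probe sets added, 1 of 6 members in place of 0 of 5 differed by more than 1 between the arrays, and again 0 did without probe set 8133314, an alternative chosen after seeing the data. Without replicate 1 or without replicate 2, 4 members were above background and 2 above the second threshold, and pathway genes above background numbered 48 and 49. For single members, 25 levels and differences were recomputed with quantile normalization, each array alone and loess differences. They stayed within the spread, 0.28 for levels and 0.39 for differences. Levels on each array alone follow from the differences given above, so they are no separate check. The spread of 0.39 is larger than the differences of CYBB (0.26), CYBA (-0.16) and NCF4 (-0.33) and the median difference (-0.16). A change of these to no difference would also have stayed within it. Normexp background correction was not run for want of scanner files. No block for a slide was fitted, because each sample had its own array and there is only 1 group.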
